A study of Drosophila melanogaster with 8 samples.

Results

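The cuticle tanning genes of the dopamine pathway are 7 genes picked by name from the 15904 rows of the deposited tables: pale (ple), Dopa decarboxylase (Ddc), black (b), ebony (e), tan (t), Dat and yellow (y). Insect epidermis makes dopamine from tyrosine in a pair of steps, run by ple and then Ddc. Dopamine is next joined to beta-alanine by ebony, acetylated by the enzyme of Dat, or passed to melanin, and oxidised forms of these amines harden and colour the cuticle. The same enzymes make and clear transmitter amines in the nervous system. Ebony was singled out for its low level in the 2 groups that carry the Hsp90GFP label, so its levels in those groups are described and not tested. The other 6 genes are its partners in the pathway, named with earlier results of these data known.

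RNA came from wandering larvae, taken whole late in larval life, with 2 libraries of 5 pooled larvae for each of 4 genotypes. WT was the Oregon R+ strain. The mutant groups were hsromega66, a near-null allele of the long non-coding RNA hsromega, Hsp90GFP, which over-expresses Hsp83, and a recombinant of hsromega66 with Hsp90GFP. All 3 carried w1118 with Sp/CyO', so a contrast with WT also compares stocks. The labels name no allele of a tanning gene and do not say what drives Hsp90GFP, nor whether the pools came from separate cultures. The tables give 1 value per gene and group in FPKM (fragments per kilobase, scaled for depth), with no value per library and an unknown read depth, so no SD stands beside a level. Hsromega was at 236 FPKM in WT and 0.767 in hsromega66, against 273 in Hsp90GFP and 77.9 in the libraries given as the recombinant, which goes against that last label; they are called the labelled recombinant here. Hsp83 was at 371, 427, 1616 and 968 FPKM in the same order. The labelled recombinant also stood apart in stage markers: the 6 glue genes of the salivary gland, made late in larval life, summed to 46178 FPKM in WT and 50415 in hsromega66, against 28409 in Hsp90GFP and 28.1 there. Most of the sum in WT and hsromega66 was Sgs7 (33244 and 39513 FPKM). Of the 6, 4 lay below WT in hsromega66, and all 6 did in Hsp90GFP and in the labelled recombinant. A gene is "called" here when the authors' q-value was under 0.05. An interval in brackets is the 95% normal interval that the authors' test statistic implies for a ratio. It need not match the deposited p-value. For tan in hsromega66 against WT it runs from 0.855 to 9.69, beside an unadjusted Cuffdiff p of 0.0217.

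The members lie on 5 chromosome arms (dm6): ple on 3L (6713356 to 6719525, minus strand, FBgn0005626), Ddc on 2L (19116483 to 19120306, minus strand, FBgn0000422) and b on 2L (13821248 to 13823979, plus strand, FBgn0000153). Ebony is on 3R (21229839 to 21237177, minus strand, 7 distinct exons, FBgn0000527), t on X (9217655 to 9223257, minus strand, FBgn0086367), y on X (356509 to 361245, plus strand, FBgn0004034) and Dat, now named speck, on 2R (24139563 to 24157762, plus strand, FBgn0287831). The rows of e, b, t and ple span the annotated gene exactly. Those of Ddc and Dat span a locus shared with another row (CG10561, and CG42568 merged with DnaJ-60), and that of y spans a locus of 202 kb shared with 18 other rows. The sources used here do not give how overlapping genes or strands were counted.

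Larvae of both Hsp90GFP-labelled groups had less RNA of ple, b and ebony than WT, while hsromega66 larvae had these near or above the WT level. Ple still stood above 60.9% of all rows in Hsp90GFP and 66.9% in the labelled recombinant. Ddc fell in the labelled recombinant, where Dat rose. Of the 5 tested members other than ebony, 3 fell and 1 rose in the labelled recombinant against WT, where 4.05% of all tested genes fell and 4.61% rose. In Hsp90GFP against WT, 2 fell and none rose, where 0.467% of all tested genes fell and 0.618% rose. In hsromega66 against WT none of the 5 was called by Cuffdiff or by the implied errors, 1 had an unadjusted p under 0.05, and 0.862% of all tested genes rose and 0.375% fell. In bulk RNA, fewer cells of a type and less RNA per cell cannot be told apart.

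**Figure D1:**
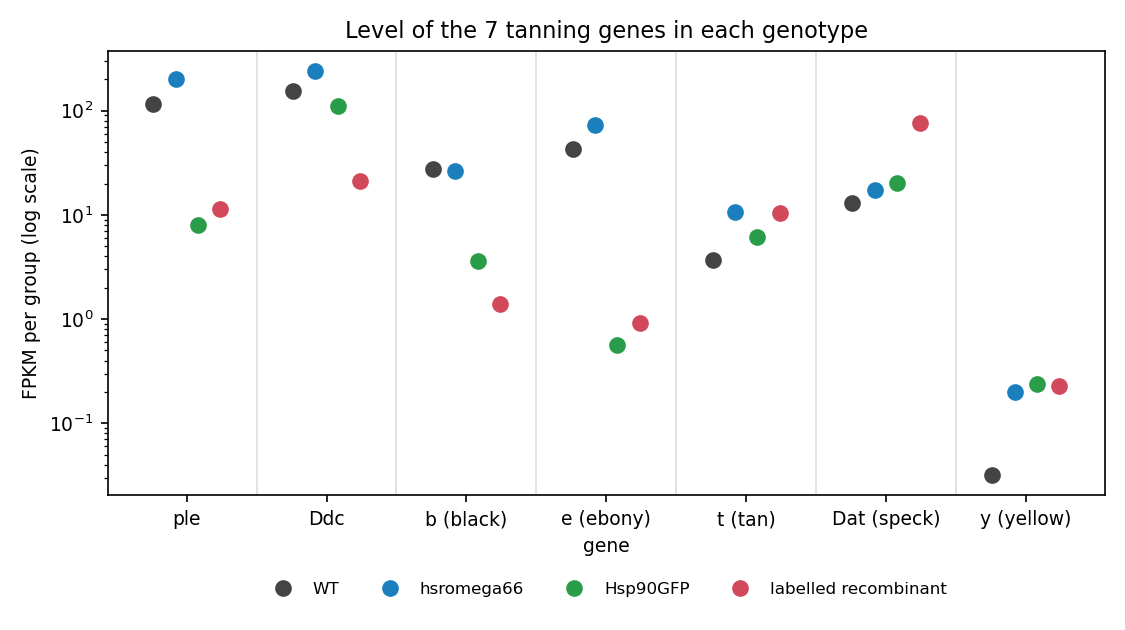
Level of each member in FPKM (log axis), 1 point per genotype and gene, with no error bar because the tables hold 1 value per group. Ple, b and e are low in Hsp90GFP and in the labelled recombinant, Ddc is low in the labelled recombinant (21.2 FPKM), and Dat is high there (76.9 FPKM).

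Synthesis of dopamine starts with ple, which encodes tyrosine hydroxylase, the enzyme that makes DOPA. Ple was at 115 FPKM in WT and 201 in hsromega66, against 8.07 in Hsp90GFP and 11.3 in the labelled recombinant. The low pair and the high pair thus stood at least 10.2-fold apart. Ple fell 14.2-fold in Hsp90GFP against WT (3.73 to 54.3; q = 0.00264 in the authors' deposited table), and by 10.2-fold in the labelled recombinant (2.63 to 39.2; q = 0.00372 in the authors' deposited table). Against hsromega66 the falls were 25.0-fold and 17.8-fold, each with q = 0.00144, the smallest in the authors' deposited table. The low groups did not differ beyond error, with a ratio of 1.40 of the labelled recombinant to Hsp90GFP (0.484 to 4.06; q = 0.808 in the authors' deposited table), nor did hsromega66 and WT (1.75, 0.376 to 8.18; q = 0.749 in the authors' deposited table).

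Ddc encodes the decarboxylase that turns DOPA into dopamine. It was at 153 FPKM in WT and 240.3 in hsromega66, against 112 in Hsp90GFP and 21.2 in the labelled recombinant. One group stood apart here, where ple had shown a low pair. Ddc fell 7.22-fold in the labelled recombinant against WT (1.72 to 30.3; q = 0.0191 in the authors' deposited table), 11.3-fold against hsromega66 (q = 0.00144 in that table) and 5.28-fold against Hsp90GFP (1.44 to 19.4; q = 0.0254 in the authors' deposited table). In Hsp90GFP itself Ddc was at 73.2% of WT (0.183 to 2.93 as a ratio; q = 0.924 in the authors' deposited table). The Ddc level was 1.33 times that of ple in WT, 1.19 times in hsromega66, 13.9 times in Hsp90GFP and 1.88 times in the labelled recombinant, as ratios of FPKM, which are per gene length. The calls against WT and against Hsp90GFP were lost at q under 0.01 and with the implied errors.

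Black encodes aspartate decarboxylase, which makes the beta-alanine that ebony joins to dopamine. It was at 27.4 FPKM in WT and 26.6 in hsromega66, against 3.63 in Hsp90GFP and 1.38 in the labelled recombinant. WT and hsromega66 were nearly level (ratio 0.969, 0.296 to 3.18; q = 0.994 in the authors' deposited table). Black fell 7.55-fold in Hsp90GFP against WT (2.09 to 27.4) and 19.8-fold in the labelled recombinant (5.22 to 75.2), both with q = 0.00144 in the authors' deposited table. Against hsromega66 the falls were 7.32-fold and 19.2-fold with the same q in the authors' deposited table. The labelled recombinant was 2.62-fold below Hsp90GFP, not called (0.713 to 9.65; q = 0.257 in the authors' deposited table). Calls made from the implied errors kept the falls of black in the labelled recombinant and lost those in Hsp90GFP.

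Ebony encodes the synthetase that couples beta-alanine to dopamine, giving N-beta-alanyldopamine, a precursor of light, hard cuticle. It was at 42.8 FPKM in WT and 73.3 in hsromega66, against 0.562 in Hsp90GFP and 0.925 in the labelled recombinant. These levels stood above 88.6% of all rows in WT and 92.2% in hsromega66, and above 24.6% in Hsp90GFP and 37.1% in the labelled recombinant. The low groups were those that put ebony in view: Hsp90GFP was 76.2-fold below WT and 130.5-fold below hsromega66, and the labelled recombinant was 46.3-fold and 79.3-fold below them, given as a description with no interval or test. Outside that choice, hsromega66 was 1.71-fold above WT (0.374 to 7.84; q = 0.735 in the authors' deposited table). The labelled recombinant was 1.65-fold above Hsp90GFP (0.344 to 7.88; q = 0.828 in the authors' deposited table). Neither of these contrasts was larger than its error.

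Tan encodes the hydrolase that splits N-beta-alanyldopamine back to dopamine, the reverse of the ebony step. It was at 3.68 FPKM in WT and 10.6 in hsromega66, against 6.09 in Hsp90GFP and 10.3 in the labelled recombinant. No contrast of tan was called, and its lowest q was 0.169, for hsromega66 against WT (2.88-fold higher, 0.855 to 9.69) in the authors' deposited table. Ebony stood at 11.6 times the tan level in WT and 6.93 times in hsromega66, whereas tan stood at 10.8 times the ebony level in Hsp90GFP and 11.2 times in the labelled recombinant.

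Dat, which is not the dopamine transporter gene DAT, encodes an arylalkylamine N-acetyltransferase that makes N-acetyldopamine, the precursor of colourless cuticle. It was at 13.0 FPKM in WT and 17.5 in hsromega66, against 20.3 in Hsp90GFP and 76.9 in the labelled recombinant. Dat rose in the labelled recombinant by 5.93-fold against WT (1.55 to 22.7; q = 0.0388 in the authors' deposited table) and by 4.40-fold against hsromega66 (1.27 to 15.3; q = 0.0284 in the authors' deposited table). Against Hsp90GFP the ratio was 3.79, not called (1.09 to 13.2; q = 0.0831 in the authors' deposited table). Both calls were lost at q under 0.01 and with the implied errors. Ddc stood at 11.8 times the Dat level in WT and Dat at 3.63 times the Ddc level in the labelled recombinant.

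Yellow encodes a secreted protein needed for black melanin. It was listed at 0.0318 FPKM in WT and 0.199 in hsromega66, against 0.237 in Hsp90GFP and 0.228 in the labelled recombinant, all under 1 FPKM. The authors' tables hold no test of yellow in any of the 6 comparisons, so these levels are not compared.

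**Figure D2:**
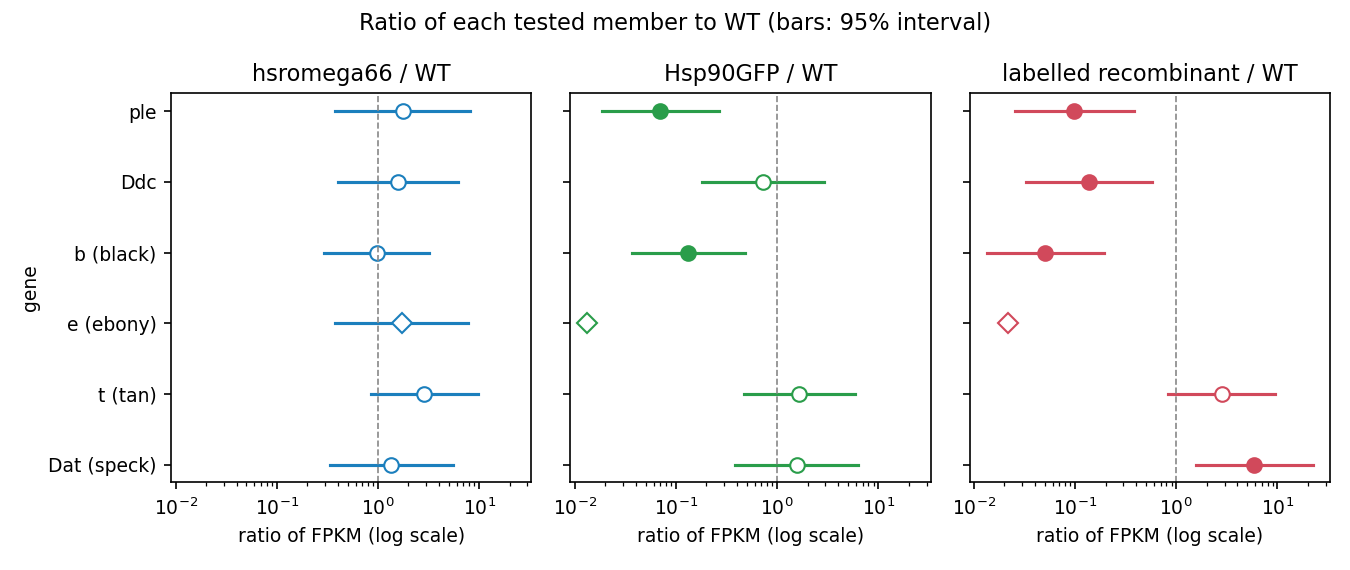
Ratio of FPKM to WT (log axis) for the 6 members that were tested, with the 95% interval implied by the authors' statistic. Filled points were called, open circles were not, and the diamonds mark ebony, which has no call, and no interval in the 2 groups that chose it. Ple and b lie left of 1 in Hsp90GFP and in the labelled recombinant, and none of the 6 is called in hsromega66.

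Between the mutant groups, the tested members other than ebony gave 3 lower and 1 higher in the labelled recombinant against hsromega66 (3.63% and 3.68% of all tested genes). Hsp90GFP against hsromega66 gave 2 lower and none higher (0.654% and 0.343% of all tested genes). The labelled recombinant against Hsp90GFP gave 1 lower, Ddc, and none higher (3.14% and 3.51% of all tested genes). The median log2 ratio of the 5 members to WT was -2.85 in the labelled recombinant, -0.45 in Hsp90GFP and 0.65 in hsromega66, against -0.06, -0.05 and -0.04 over all tested genes. At q under 0.01 the 5 members kept 2 calls in the labelled recombinant against WT (5.34% of all tested genes), 3 against hsromega66 (4.16%) and none against Hsp90GFP (3.91%), with 2 in Hsp90GFP against WT (0.578%), 2 against hsromega66 (0.63%) and none in hsromega66 against WT (0.599%). Calls from the implied errors left 2 in the labelled recombinant against WT (5.54% of all genes so tested), 3 against hsromega66 (3.47%) and none against Hsp90GFP (3.4%). In Hsp90GFP they left 1 against WT (0.416%) and 1 against hsromega66 (0.378%), and in hsromega66 none against WT (0.266%). Comparisons with WT share the WT libraries, and those with Hsp90GFP share the Hsp90GFP libraries.

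The members differed in how alike their levels were over the 4 groups. Likeness was taken as the root mean square difference of centred log2(FPKM + 1), over 4410 other named rows that reached 5 FPKM in some group. Likeness is a description for every member, since it turns on rows kept through the groups where they are high. For ebony it also turns on the low values that chose ebony. The rows nearest to ebony were mir-985 (0.433), ple (0.594), snoRNA:Me18S-C1280 (0.601), PGRP-SB2 (0.650) and snoRNA:Me28S-A2589a (0.766). The miRNA and snoRNA rows were listed at 0 in both Hsp90GFP-labelled groups, and ple and PGRP-SB2, a peptidoglycan recognition protein, were the protein-coding rows among the 5. Black ranked 11 in likeness to ebony (1.12) and Ddc 47 (1.81).

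For black the nearest rows were Eig71Eg (0.183), a late salivary gland secretion gene, mir-4976 (0.352) and SP1029 (0.401). For ple they were PGRP-SB2 (0.327), mir-4976 (0.446) and ebony (0.594). For Ddc they were, in this order, Lcp1, a larval cuticle protein, Pu (0.118), which makes the cofactor of ple, and bwa (0.192). For Dat they were fa2h (0.0527), Su(Ste):CR42430 (0.0634), a repeated Y-linked sequence whose count is uncertain, and Tsf1 (0.0802), a transferrin. Fa2h (0.955 FPKM in WT, 11.0 in the labelled recombinant) and Su(Ste):CR42430 (0.677 and 7.59) reached 5 FPKM only in the labelled recombinant. Fa2h was not called in any comparison, and mir-4976, listed at 0 in both Hsp90GFP-labelled groups, was not tested in any. Lcp1 was at 7980.4 FPKM in WT and 11790 in hsromega66, against 5957 in Hsp90GFP and 979 in the labelled recombinant, the order seen for Ddc.

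A wider list of 57 tanning and amine genes with a row of their own showed where the rest of the pathway stood. In hsromega66 against WT none of 46 tested was called by Cuffdiff or by the implied errors, and 1 had an unadjusted p under 0.05. All tested genes had 0.862% higher and 0.375% lower there. In Hsp90GFP against WT 1 of 47 rose, CG18607, and none fell, beside 0.618% and 0.467% of all tested genes. In the labelled recombinant 3 of 50 rose and 6 fell against WT, beside 4.61% and 4.05% of all tested genes. The list's median log2 ratio to WT was -0.01, 0.02 and -0.04 in that order, close to the medians over all tested genes. Against hsromega66, 4 of 46 rose and 5 fell in the labelled recombinant, beside 3.68% and 3.63% of all tested genes. In Hsp90GFP against hsromega66 none of 48 was called by Cuffdiff or by the implied errors, with 1 at an unadjusted p under 0.05, beside 0.343% higher and 0.654% lower over all tested genes. Against Hsp90GFP, 2 of 50 rose and 6 fell in the labelled recombinant, beside 3.51% and 3.14% of all tested genes. The implied errors gave 6 calls in the labelled recombinant against WT, 3 against hsromega66 and 5 against Hsp90GFP. They called 5.54%, 3.47% and 3.4% of all genes so tested in these comparisons. The list counts from the implied errors can include genes that Cuffdiff did not call. Against WT they hold 1 call in the yellow family, where the Cuffdiff call, of yellow-e, was lost.

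Of 6 genes in the sub-list of tyrosine and cofactor supply, 2 fell in the labelled recombinant against WT, where 4.05% of all tested genes fell. Pu encodes GTP cyclohydrolase, the first enzyme of tetrahydrobiopterin synthesis, and Dhpr encodes the reductase that recycles that cofactor. Pu was at 127 FPKM in WT and 182 in hsromega66, against 106 in Hsp90GFP and 16.9 in the labelled recombinant, a fall of 7.54-fold against WT (2.36 to 24.1; q = 0.00144 in the authors' deposited table). Dhpr was at 324, 209.8, 163 and 35.4 FPKM in the same order, a fall of 9.13-fold against WT (2.56 to 32.7; q = 0.00144 in the authors' deposited table). Both also fell against hsromega66 and Hsp90GFP, so the labelled recombinant stood below the other 3 groups. The other 4 of the 6 genes in that sub-list, Hn, pr, Pcd and Catsup, were not called in any comparison. The calls of Dhpr against hsromega66 and Hsp90GFP were lost with the implied errors. The rows of Pu and Dhpr share their locus with CG4286 and Use1. Among called list genes named below, PPO1, CG9486 and vri also share their locus with other rows, such as Elk, Ddr and CR45730.

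Beta-alanine also comes from uracil breakdown, and su(r), which encodes the dehydrogenase that starts it, went the other way to black. It was at 2.15 FPKM in WT and 4.19 in hsromega66, against 5.12 in Hsp90GFP and 51.2 in the labelled recombinant. The rise was 23.8-fold against WT (7.29 to 77.9), 12.2-fold against hsromega66 and 9.99-fold against Hsp90GFP, each with q = 0.00144 in the authors' deposited table. The later enzymes of that route, CRMP and pyd3, were not called; pyd3 was at 30.6 FPKM in WT and 53.4 in the labelled recombinant.

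Among enzymes that oxidise tanning precursors, the crystal cell prophenoloxidases PPO1 and PPO2 rose in the labelled recombinant. PPO1 was at 70.8 FPKM in WT and 68.3 in hsromega66, against 304 in Hsp90GFP and 296 in the labelled recombinant (4.18-fold over WT, 1.30 to 13.5; q = 0.0151 in the authors' deposited table). PPO2 was at 56.0, 76.7, 191 and 332 FPKM in the same order (5.93-fold over WT, 1.96 to 17.9; q = 0.00144 in the authors' deposited table). The PPO1 calls against WT and hsromega66 and the PPO2 call against hsromega66 were lost at q under 0.01 and with the implied errors. In Hsp90GFP their ratios of 4.30 and 3.41 to WT were not called (0.109 and 0.142 as q in the authors' deposited table). The crystal cell and hemocyte markers lz, Hml and NimC1 summed to 53.2 FPKM in WT and 42.2 in hsromega66, against 48.7 in Hsp90GFP and 90.6 in the labelled recombinant with no call, and their part in the result was not tested. Nearly all of that sum was Hml and NimC1. Lz was at 0.642, 0.778, 0.881 and 1.20 FPKM in the same order. The laccase of the cuticle, laccase2, was at 37.4, 34.8, 41.2 and 64.5 FPKM in the order WT, hsromega66, Hsp90GFP and labelled recombinant, with no call.

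In the yellow family, yellow-e fell in the labelled recombinant, from 56.7 FPKM in WT to 15.5 (3.65-fold, 1.24 to 10.7; q = 0.0114 in the authors' deposited table). Yellow-f2, which encodes a dopachrome conversion enzyme, was at 0.357 FPKM in WT and 2.46 in hsromega66, against 1.24 in Hsp90GFP and 13.5 in the labelled recombinant. It rose against hsromega66 (5.51-fold; q = 0.0165 in the authors' deposited table) and against Hsp90GFP (10.9-fold; q = 0.00565 in the authors' deposited table). Yellow-f2 was not called in the labelled recombinant against WT, where its WT level was under 1 FPKM. The yellow-e call against WT and the yellow-f2 call against hsromega66 were lost at q under 0.01 and with the implied errors. Yellow-c (75.9 FPKM in WT, 4.07 in Hsp90GFP) and yellow-f (98.7 in WT, 6.77 in the labelled recombinant) differed by large ratios that were not called (0.519 and 0.562 as q in the authors' deposited table).

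Of the acetyltransferase relatives of Dat, CG9486 fell in the labelled recombinant from 57.9 FPKM in WT to 7.35 (7.87-fold, 1.82 to 33.9; q = 0.0223 in the authors' deposited table), while Dat rose there. That call was lost at q under 0.01 and with the implied errors. CG18606 had 15.5 FPKM in WT, 0.0724 in hsromega66 and 9.93 in Hsp90GFP, and its 0 in the labelled recombinant was a called fall against WT, for which the tables imply no error. CG18607 rose in Hsp90GFP from 1.75 to 19.0 FPKM (10.9-fold, 2.39 to 49.3; q = 0.0122 in the authors' deposited table), a call lost at q under 0.01 and under every readjustment of the p-values tried. Vri, a bZIP transcription factor, fell in the labelled recombinant from 29.5 to 3.99 FPKM (7.39-fold, 2.36 to 23.2; q = 0.00144 in the authors' deposited table). Vri was the called gene among 9 regulators of tanning. The dopamine transporter and receptor genes, 4 of 6 of which were tested, were not called in any comparison.

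**Figure D3:**
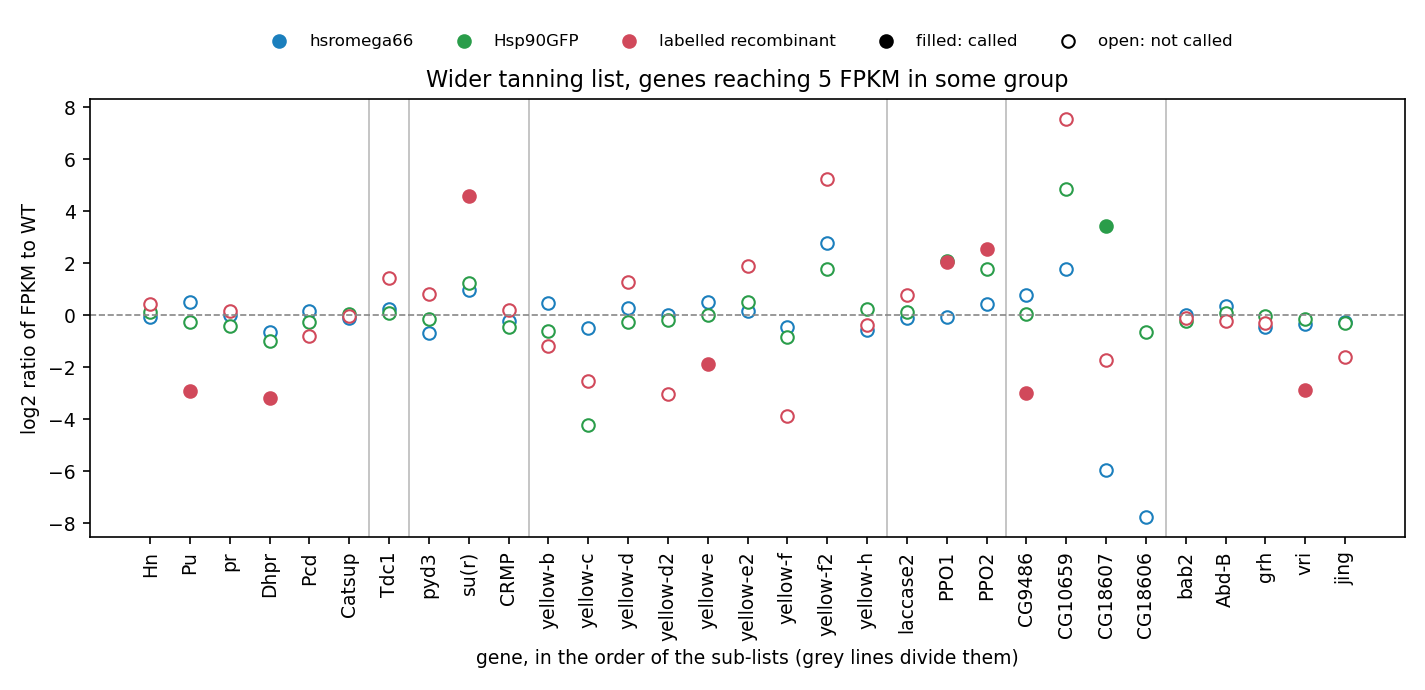
Log2 ratio of FPKM to WT for genes of the wider list that reached 5 FPKM in some group, with filled points called and open points not; genes listed at 0 in a group have no point for it. Filled points of the labelled recombinant lie below 0 for Pu, Dhpr, yellow-e, CG9486 and vri and above 0 for su(r), PPO1 and PPO2, and 1 gene, CG18607, is filled in Hsp90GFP.

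Ebony lies 59.0 kb from Hsromega on 3R, with 9 other rows between them, and its neighbours had no like fall in Hsp90GFP. Within 100 kb of ebony there were 24 other rows, of which 22 were tested. In Hsp90GFP against WT none of the 22 was called by Cuffdiff or by the implied errors, none had an unadjusted p under 0.05, and 21 lay within a 2-fold ratio. Cuffdiff called 1.09% of all tested genes there and the implied errors 0.416%, so no call among 22 is near those shares. In the labelled recombinant against WT 14 of the 22 lay within 2-fold and 3 had an unadjusted p under 0.05. There 1 was called, CG3301, which rose from 5.14 to 77.7 FPKM (q = 0.00144 in the authors' deposited table), beside 8.66% of all tested genes. In hsromega66 against WT 1 was called, Hsromega itself, beside 1.24% of all tested genes.

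The rows next to ebony on one side, 0.327 kb away, were Oga, Nelf-A and the merged row of CG3337 and CR44265. Oga was at 10.8 FPKM in WT and 9.79 in hsromega66, against 9.32 in Hsp90GFP and 9.51 in the labelled recombinant. Nelf-A was at 6.24, 5.27, 5.99 and 5.30 FPKM in the same order. On the other side, CG5892 was at 0.654, 2.00, 0.713 and 2.11 FPKM in that order. Its ratios to WT of 3.06 in hsromega66 and 3.22 in the labelled recombinant had unadjusted Cuffdiff p of 0.0298 and 0.0339. ETHR, the receptor of ecdysis triggering hormone, was at 2.40, 1.67, 1.37 and 1.03 FPKM, and Rab1 at 187, 200, 173 and 149. None of these neighbours was called in any of the 6 comparisons, in which 0.997% to 8.66% of all tested genes were called. The lowest log2 ratio to WT of any neighbour in Hsp90GFP was -0.81, for ETHR.

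**Figure D4:**
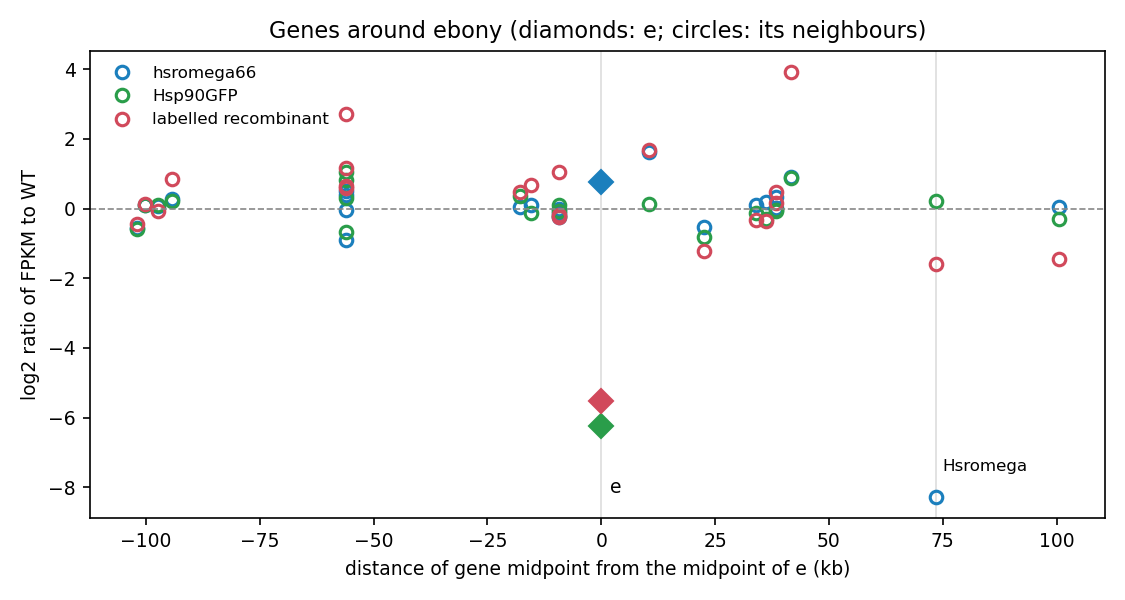
Log2 ratio of FPKM to WT against distance from ebony in kb, for tested rows within 100 kb; diamonds are ebony and circles its neighbours. Ebony lies low in Hsp90GFP and in the labelled recombinant, Hsromega lies low in hsromega66, and the neighbours of ebony in Hsp90GFP lie near 0.

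Markers of tissues that use these genes were read beside the results. The 4 neuron markers elav, nSyb, brp and Syt1 summed to 33.4 FPKM in WT and 35.9 in hsromega66, against 42.4 in Hsp90GFP and 34.2 in the labelled recombinant, with no call and none at 0. Vmat, the vesicular amine transporter, was at 2.87, 3.12, 1.77 and 2.47 FPKM in the same order, and the epidermal factor grh at 24.6, 18.0, 24.0 and 20.0. In Hsp90GFP against WT none of 33 tested tissue markers was called by Cuffdiff or by the implied errors, and 2 had an unadjusted p under 0.05. These were the glue genes Sgs1 and Sgs3, 3.63-fold and 3.28-fold below WT (0.0627 and 0.0856 as q in the authors' deposited table). Over all tested genes the shares called were 1.09% and 0.416%, so no call among 33 is near them. In hsromega66 against WT 1 of 33 was called, the glue gene Sgs1, which fell from 80.6 to 8.62 FPKM (q = 0.00144 in the authors' deposited table). The share of all tested genes that fell there was 0.375%, and the Sgs1 call was lost with the implied errors. The 3 muscle markers summed to 2114 FPKM in WT and 1097 in hsromega66, against 2442 in Hsp90GFP and 4950 in the labelled recombinant, with no call against WT. The 4 glia markers summed to 335 FPKM in WT and 329 in hsromega66, against 223 in Hsp90GFP and 113 in the labelled recombinant, most of it Gs2 (326, 321, 213 and 102), with none at 0; their part in the results was not tested.

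Other markers also moved in the libraries labelled as the recombinant, beside the near loss of glue gene RNA. Of the 10 cuticle markers, Lcp1, Lcp2 and Cpr49Ac fell there against WT, Cpr49Ac from 2017 to 69.6 FPKM, while Lcp3 was at 19067 FPKM against 8397 in WT. The calls of Lcp1 and Lcp2 were lost at q under 0.01 and with the implied errors, and the cuticle sum was 44681 FPKM against 43520 in WT. Of the 4 fat body markers, Fbp1 and Lsp2 fell, Lsp2 from 10998 to 178 FPKM, where 4.05% of all tested genes fell. Lsp1alpha and Lsp1beta were not called, at 5287 and 11259 FPKM there against 6652 and 8845 in WT. The fat body sum was 16727 FPKM against 32490 in WT. The falls of Ddc, Pu and Dhpr and the rises of Dat, su(r), PPO1 and PPO2 came in the same libraries, and the part of stage in them was not tested. In Hsp90GFP the glue sum was at 28409 FPKM against 46178 in WT, with all 6 glue genes below WT and none called. The cuticle sum was at 41661 against 43520 in WT and the fat body sum at 28665 against 32490, beside the falls of ple and black. The part of stage in those falls was not tested.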

How the data were processed

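Total RNA of whole larvae was depleted of ribosomal RNA and sequenced as 50 bp paired reads, per the labels. Per the submitters' processing notes, the tools were Cuffdiff 2.1.1, Cufflinks, TopHat and Bowtie, on build dm6. The 6 tables hold 1 comparison each between a pair of the 4 groups. Their group values are FPKM, 1 per group and gene, and the authors' pooling of both libraries leaves no spread. The deposited test statistic is a score that the authors' Cuffdiff run made from both groups. The deposited p-value and q-value are the authors' own. Calls used q under 0.05 and status OK, which equalled the authors' flag in all 6 tables. Dividing a log2 ratio by the statistic gave its implied standard error, and calls from these errors used a z test of the median-centred ratio with Benjamini-Hochberg adjustment in each table. P-values rest on no replication beyond a group's 2 libraries, whose spread may be technical.

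Members and lists were chosen with earlier results of these data known. The text names members, called list genes, the 3 nearest rows on each side of ebony, rows called within 100 kb, and up to 5 rows most like ebony and 3 most like each other called member. Other list genes, yellow-c, yellow-f, laccase2, pyd3, Vmat and grh among them, were named after their values were seen. Of 67 list entries, 57 had a row of their own, 4 repeated another gene, 1 was in a merged row and 5 were not matched. Coordinates came from Ensembl release 115. No sequence is shown. Work was done in Python 3.11.15 with pandas 2.3.3, numpy 2.4.6, matplotlib 3.10.9 and scipy 1.17.1, and error-based calls were tested on simulated data.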

Additional observations from a re-analysis of the deposited data

How the results depend on the processing

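No paired analysis was possible because the tables hold 1 pooled value per group, and for the same reason no replicate could be left out. All signs of member log2 ratios that were called held under median-centring and with 1 or 0.1 added to FPKM. Member counts (ebony and yellow aside) moved as follows. At q under 0.01 the labelled recombinant against WT gave 2 (black and ple) and against Hsp90GFP 0. With calls from the implied errors it gave 2 and 0, and Hsp90GFP gave 1, ple, against WT and 1 against hsromega66. For the wider list, Hsp90GFP against WT gave 0 at q under 0.01 (0.578% of all tested genes). It gave 0 with Benjamini-Hochberg adjustment within the table (0.42%) and 0 with rows of at least 1 FPKM (0.451%). The labelled recombinant against Hsp90GFP gave 5 at q under 0.01, beside 3.91% of all tested genes. With the implied errors the number of list calls in the labelled recombinant went from 9 to 6 against WT, though not all of the same genes. It went from 9 to 3 against hsromega66 and from 8 to 5 against Hsp90GFP. Over all genes so tested the implied errors called 5.54% against WT, 3.47% against hsromega66 and 3.4% against Hsp90GFP. Around ebony, a window of 50 kb, which leaves out Hsromega, gave 0 calls for hsromega66 against WT, 0 for Hsp90GFP against hsromega66 and 1 for the labelled recombinant against hsromega66. A window of 200 kb gave 4 for the labelled recombinant against hsromega66 and 4 against Hsp90GFP. Of all tested genes, 7.3% and 6.66% were called in these comparisons, and 1.24% and 0.997% in hsromega66 against WT and Hsp90GFP against hsromega66. Of 46 calls of single named genes, 14 were lost at q under 0.01, 21 with the implied errors (2 of these are of CG18606, listed at 0, which has no implied error) and 2 under each readjustment; the cause was not tested. Read depth is unknown, so no limit of detection can be given.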
